A study of Caenorhabditis elegans with 14 samples.

Results

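Gene expression was compared between met-2 hpl-2 embryos (n = 3 libraries) and hpl-2-FFAA embryos (n = 4 libraries) of the nematode Caenorhabditis elegans. These were 7 of the 14 RNA-seq libraries of the study, put into their groups by the genotype in the labels. The met-2 hpl-2 strain carried the n4256 allele of met-2 and the tm1489 allele of hpl-2, both on chromosome III, and was kept over the hT2 balancer, a translocation of chromosomes I and III that carries bli-4(e937), let-?(q782) and qIs48. The labels do not say how its embryos were chosen with respect to the balancer. The hpl-2-FFAA strain carried the px112 allele of hpl-2 and no met-2 allele, and the labels do not spell out the change that FFAA stands for. Wild-type N2 Bristol embryos (n = 3) and hpl-2(tm1489) embryos (n = 4) were measured beside them. Embryos of all groups are described as early, from synchronized cultures at 20 °C. The cell type field of the labels reads yeast cells, which goes against the organism, the worm genotypes and the worm gene identifiers of the table. The protocol for extraction speaks of an exposure to temperatures for 2 h, whereas the treatment field gives 20 °C for every library.

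HPL-2 is a worm member of the HP1 family, chromatin proteins best known for binding methylated lysine 9 of histone H3 (H3K9) in silent chromatin. MET-2 is a histone methyltransferase that places mono- and dimethylation at H3K9 in the embryo and so supplies the mark that HP1 proteins read. In worms both proteins are enriched on the repeat-rich outer parts of the autosomes, called arms, and loss of either is known to release repressed genes and repeats. The 2 genotypes thus differ in at least 2 ways, in the allele of hpl-2 and in the presence of the met-2 mutation. The balancer of the met-2 hpl-2 strain is a further difference between the strains. A difference in expression between the groups cannot be assigned to any of these.

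Each met-2 hpl-2 library had between 14313366 and 14840992 counts, and each hpl-2-FFAA library between 5332725 and 6059674. A gene without a count could thus have stood at up to 3 counts, which is 0.217 to 0.219 CPM in met-2 hpl-2 and 0.489 to 0.558 CPM in hpl-2-FFAA, for counting error only. CPM are counts scaled to a common library total. Between 15836 and 16297 genes had a count in met-2 hpl-2 and between 13488 and 13685 in hpl-2-FFAA, so depth and genotype moved together. Wild-type libraries had between 5846490 and 6032200 counts and hpl-2 mutant libraries between 5497160 and 6390870. The met-2 hpl-2 libraries thus differed in depth from every other group. The hpl-2-FFAA libraries fell into 2 pairs. On the second principal component of the 7 libraries, which held 10.1% of the variance against 76.4% for the first, replicates 1 and 2 lay at 9.65 and 23.2 and replicates 3 and 4 at -14.3 and -11.0. The met-2 hpl-2 libraries lay between -5.50 and 1.19. All pairs of replicates differed beyond sampling noise. The labels give no batch, and values for replicates 1 and 2 alone and for 3 and 4 alone are given beside the results they move.

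The mutated genes were measured first, as a check of the labels. Levels are CPM scaled by TMM, a normalisation that assumes most genes to be unchanged. The gene met-2 (WBGene00019883) lies on chromosome III, plus strand, from 8375300 to 8380848 in the WBcel235 assembly. It stood at 283, 275, 289.5 and 284 CPM in the 4 hpl-2-FFAA libraries and at 31.3, 29.4 and 27.7 CPM in the 3 met-2 hpl-2 libraries. The groups were far apart, and wild type (287.7 ± 8.83 CPM, SD, n = 3) and the hpl-2 mutant (265 ± 5.92 CPM, n = 4) lay near hpl-2-FFAA. The log2 fold change of met-2 hpl-2 against hpl-2-FFAA was -3.26 (SE 0.048, edgeR quasi-likelihood test, adjusted p = 1.82e-19).

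The gene hpl-2 (WBGene00001996; chromosome III, minus strand, 10752195 to 10755530) stood at 63.5, 63.8, 63.8 and 70.3 CPM in hpl-2-FFAA. In met-2 hpl-2 it stood at 8.58, 10.4 and 11.1 CPM. Replicate 4 of hpl-2-FFAA was the highest and the groups did not overlap. The hpl-2 mutant, which shares the tm1489 allele with met-2 hpl-2, stood at 4.41 ± 0.693 CPM and wild type at 95.9 ± 5.46 CPM. The log2 fold change was -2.70 (SE 0.0873, edgeR adjusted p = 2.84e-14). Both genes were thus low in the libraries whose labels name a mutation of them, apart from hpl-2 in the px112 strain, where it was present at a lower level than in wild type in all 4 libraries.

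Of 9498 genes that passed the low-count filter, 5856 (61.7%) differed between the genotypes at an adjusted p below 0.05. Of these, 2936 (30.9% of tested genes) were higher in met-2 hpl-2 and 2920 (30.7%) were lower. Most differences were small, with a median size of 0.45 on the log2 scale among the genes called. At least 2-fold changes were less even: 779 genes (8.2% of those tested) were that much higher and 233 (2.45%) that much lower. Most of this excess lay at low mean levels over the 14 libraries, where a gene can pass the filter through met-2 hpl-2 alone. From 1 to under 3 CPM 404 genes were that much higher and 38 lower, and from 3 to under 10 CPM 187 and 73. From 10 to under 30 CPM the counts were 73 and 70, from 30 to under 100 CPM 40 and 48, and at 100 CPM or more 27 and 3. The libraries of the genotypes did not overlap for 5303 genes (55.8%). With library size alone as the scaling, 38.2% of the called genes were higher, in place of 50.1%, because the median over all genes then moved to -0.09 from 0.00. A call in either direction is therefore common, and a list of genes is read below against the percentages over all tested genes. Those percentages vary with level. From 30 to under 100 CPM 21.9% of tested genes were higher and 44.3% lower, and from 1 to under 3 CPM 43.4% and 5.96%. No list was compared with genes of like level.

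**Figure D1:**
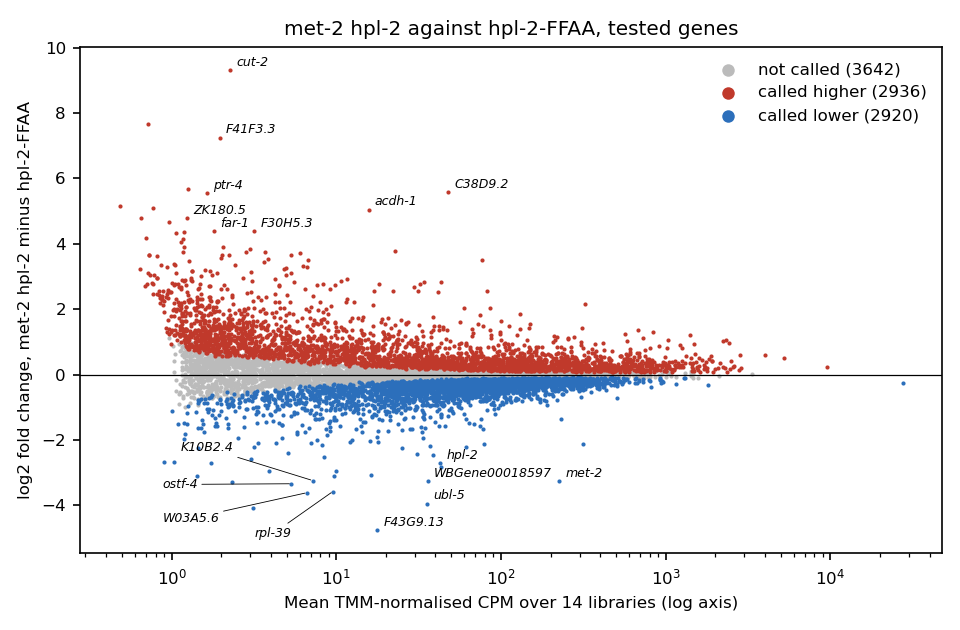
The log2 fold change of met-2 hpl-2 against hpl-2-FFAA (vertical axis) is plotted against the mean level of each tested gene over 14 libraries (horizontal log axis, TMM-normalised CPM), with 2936 genes called higher in red, 2920 called lower in blue and 3642 not called in grey. Genes above a log2 fold change of 4 are mostly of low level, whereas C38D9.2 and acdh-1 stand apart at a higher one.

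The 8 genes with the largest increases stood at 5.58 CPM or less in every hpl-2-FFAA library. They were taken from the called genes whose groups did not overlap and whose higher mean reached 5 CPM, and their log2 fold changes ran from 4.38 to 9.31, with edgeR adjusted p-values from 2.00e-17 to 9.25e-07. C38D9.2 (WBGene00008010; chromosome V, plus strand, 17567150 to 17571742, on an arm) had the smallest p of the 8. It stood at 3.38, 5.58, 4.24 and 4.08 CPM in hpl-2-FFAA and at 199.8, 211 and 202 CPM in met-2 hpl-2. Every library of met-2 hpl-2 was far above every other library of the study, where the means were 2.12 ± 0.38 CPM in wild type and 8.45 ± 2.18 CPM in the hpl-2 mutant. Its log2 fold change was 5.57 (SE 0.11).

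The gene acdh-1 encodes an acyl-CoA dehydrogenase of the propionate shunt (WBGene00016943; chromosome I, plus strand, 6497436 to 6499560). It stood at 3.04, 2.23, 1.70 and 1.30 CPM in hpl-2-FFAA and at 68.1, 65.6 and 71.4 CPM in met-2 hpl-2. The groups were well separated, and wild type (1.56 ± 0.33 CPM) and the hpl-2 mutant (0.53 ± 0.411 CPM) were low. The log2 fold change was 5.04 (SE 0.152, edgeR adjusted p = 1.01e-14).

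The cuticlin gene cut-2 (WBGene00009983; chromosome V, plus strand, 13414949 to 13416064) had no count in any hpl-2-FFAA library and stood at 10.5, 9.14 and 11.6 CPM in met-2 hpl-2. With 430 counts against 0, and a limit of 3 counts over the hpl-2-FFAA group, its level was at least 81.0-fold higher. F41F3.3 had 371 counts against 1, a ratio of depth-scaled counts of 210 with a 95% counting interval of 37.4 to 8304. The patched-related gene ptr-4 had 281 counts against 3, a ratio of 52.9 (17.9 to 258). The means of these 3 genes in wild type and in the hpl-2 mutant were 0.0385 to 0.492 CPM. In such bulk samples more cells of a type and more RNA per cell cannot be told apart.

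The other 3 of the 8 were ZK180.5, F30H5.3 and far-1, which encodes a fatty acid and retinol binding protein. F30H5.3 stood at 0.676, 0.558, 0.170 and 0.978 CPM in hpl-2-FFAA and at 14.5, 9.87 and 14.2 CPM in met-2 hpl-2. For far-1 the hpl-2-FFAA libraries ran from 0 to 0.676 CPM and the met-2 hpl-2 libraries from 5.55 to 7.87 CPM. ZK180.5 ran from 0 to 0.507 CPM and from 3.07 to 7.08 CPM. Among all 20392 genes 4433 had no count in any hpl-2-FFAA library, and 6 of them exceeded 1 CPM in all 3 met-2 hpl-2 libraries. No gene showed the reverse, with the limit that the hpl-2-FFAA libraries were shallower.

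**Figure D2:**
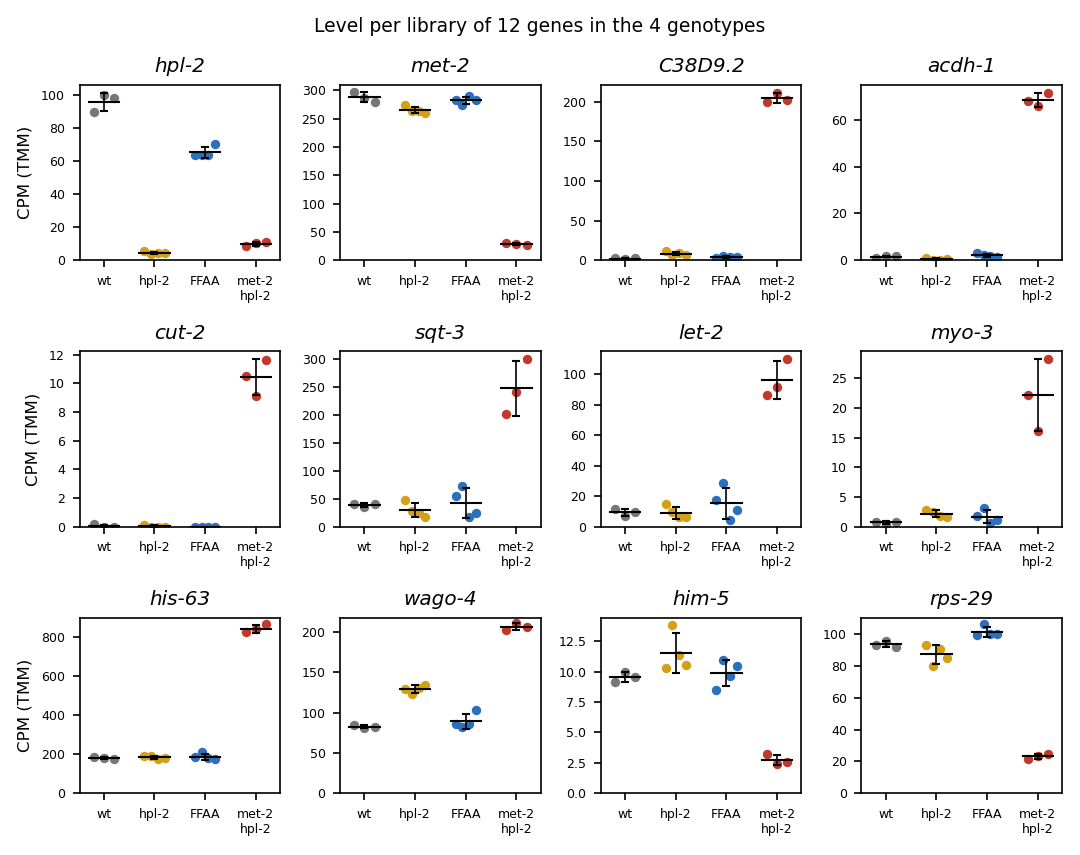
TMM-normalised CPM (vertical axes, linear, from 0) of 12 genes in each library of wild type (grey), the hpl-2 mutant (yellow), hpl-2-FFAA (blue) and met-2 hpl-2 (red), with points for libraries, a line for the mean and bars for 1 SD. C38D9.2, acdh-1 and cut-2 are high in met-2 hpl-2 alone among the 4 genotypes, which is also the group of deepest libraries. The genes sqt-3, let-2 and myo-3 also differ among the hpl-2-FFAA libraries.

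The largest decreases, met-2 apart, were in short genes. By the same rule the 7 others of the 8 lowest had log2 fold changes from -4.77 to -3.24, and their deposited widths ran from 176 to 512 bases, with 6 of 7 under 500. Lowest was F43G9.13, at 23.5, 17.8, 19.3 and 20.1 CPM in hpl-2-FFAA and 1.38, 0.365 and 0.433 CPM in met-2 hpl-2. It overlaps idha-1 on the opposite strand, and the use of strand in the counting is not given. The ubiquitin-like gene ubl-5 stood at 47.5, 41.1, 46.5 and 46.3 CPM against 3.13, 2.70 and 2.96 CPM. WBGene00018597, which has no entry in the annotation, ran from 41.2 to 49.7 CPM in hpl-2-FFAA and from 4.19 to 5.17 CPM in met-2 hpl-2. In these 3 genes wild type and the hpl-2 mutant stood near hpl-2-FFAA, with means of 21.6 to 49.9 CPM.

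The others were W03A5.6, rpl-39, ostf-4 and K10B2.4, at means of 6.57 to 12.4 CPM in hpl-2-FFAA and 0.630 to 1.02 CPM in met-2 hpl-2. The gene rpl-39, for a protein of the large ribosomal subunit, overlaps grl-10 on the opposite strand. The 8 lowest genes, met-2 included, had edgeR adjusted p-values from 1.82e-19 to 6.27e-09. With an offset for gene width, added after the data were seen, the 7 short genes stood at -4.63 to -3.11 and all stayed called. The offset removes only an average trend with width, fitted on better expressed genes. It cannot tell how far width lowered these 7, and the part of width in their decrease was not tested.

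Gene width moved with the calls in general. Among genes called at least 2-fold lower the median width was 794 bases and 22.7% (53 genes) were under 500 bases, beside a median of 1480 bases and 3.82% (363) of all tested genes. Genes called at least 2-fold higher had a median of 1604 bases, with 3.72% (29) under 500 and 7.19% (56) at 5000 or more, beside 3.25% (309) of all tested genes at that width. Of those 309 genes, 60.8% were called higher and 14.2% lower. Of the 318 genes from 300 to under 500 bases, 27.0% were higher and 35.8% lower. Across the 9498 genes Spearman's rho of log2 fold change on width was 0.14, a description over genes that share their libraries. In the same width classes the median difference of hpl-2-FFAA from wild type lay between -0.06 and 0.03 on the log2 scale. The part that library preparation or sequencing of the met-2 hpl-2 libraries had in this relation was not tested.

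Position on the chromosomes also moved with the calls. On the autosomes 33.9% of 4853 tested genes in the arms, taken as the outer 2 of 3 equal parts of a chromosome, were higher in met-2 hpl-2 and 27.5% were lower. In the central parts 23.2% of 3353 genes were higher and 39.9% lower. The arms held more called-higher genes than the centre on all 5 autosomes, with 36.5% against 20.4% on chromosome I as the widest gap and 30.4% against 22.6% on chromosome III as the narrowest. Genes in the arms were less expressed (median 31.5 CPM) than genes in the centres (51.1 CPM). Among genes of at least 10 CPM on average 29.7% of arm genes and 20.7% of centre genes were higher.

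The X chromosome went further than the autosomes. Of 1122 tested X genes 39.7% were higher and 19.0% lower, beside 29.5% and 32.6% of 8206 autosomal genes, and the X had no excess in its arms (37.5%) over its centre (44.2%). Genes of the X took 7.92%, 8.13% and 8.52% of the counts in met-2 hpl-2 and 7.17%, 7.62%, 6.44% and 6.45% in hpl-2-FFAA. Every met-2 hpl-2 library was above every hpl-2-FFAA library, and replicates 3 and 4 were the lowest of the latter. The means were 8.19 ± 0.304% and 6.92 ± 0.578%, and their difference of 1.27 percentage points had a two-sided exact permutation p of 0.0571 over the 35 assignments of libraries to groups. Wild type ran from 6.96% to 7.15% and the hpl-2 mutant from 5.69% to 6.29%.

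**Figure D3:**
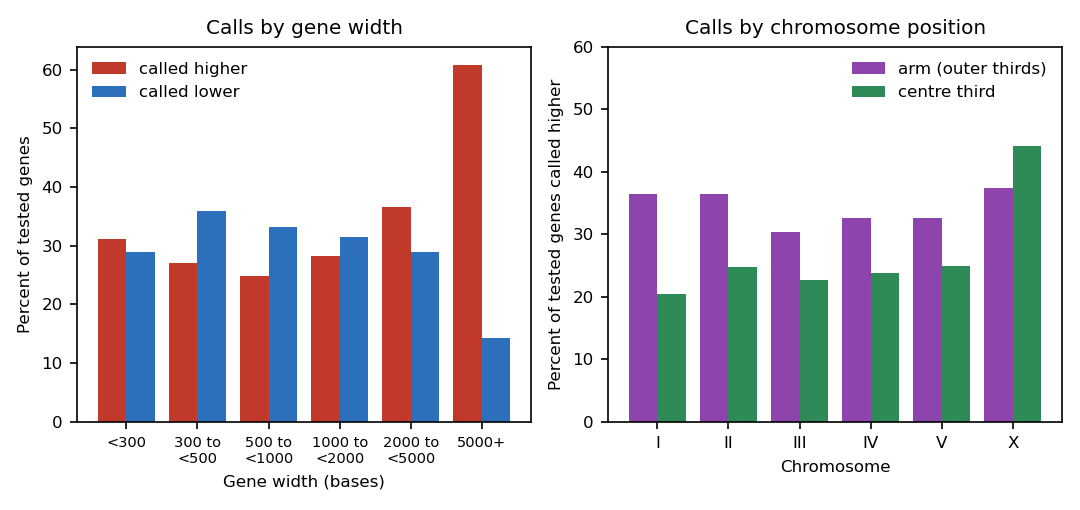
Left, the percent of tested genes called higher (red) and called lower (blue) in met-2 hpl-2 in 6 classes of deposited gene width in bases. Right, the percent called higher in the arms (purple) and the central part (green) of each chromosome: genes of 5000 bases or more reach 60.8%, and the arms exceed the centre on the autosomes but not on X.

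Genes that build the worm's body wall were higher in met-2 hpl-2. The apical matrix list holds cuticle collagens, cuticlins and proteins of the sheath that shapes the embryo. Of its 33 measured members 21 passed the filter, and 19 of these (90.5%) were higher, 14 of them at least 2-fold, and the other 2 were not called, with a median log2 fold change of 1.47 beside 0.00 over all genes. The cuticle collagen dpy-3 stood at 2.53, 2.97, 1.36 and 1.30 CPM in hpl-2-FFAA and 12.6, 13.3 and 15.0 CPM in met-2 hpl-2. Its log2 fold change was 2.75 (SE 0.205, edgeR adjusted p = 3.79e-09). In hpl-2-FFAA the lower values of dpy-3 were those of replicates 3 and 4. Since a member can pass the filter through met-2 hpl-2 alone, as cut-2 did, the counts in this and the next lists describe the members that passed and not the whole lists. Any member named in these lists beyond the 1 or 2 of smallest adjusted p was chosen after its values were seen.

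The collagen sqt-3, chosen after its values were seen, had the same shape at a higher level. It stood at 55.4, 73.6, 17.1 and 25.1 CPM in hpl-2-FFAA and at 201.7, 241.5 and 300.3 CPM in met-2 hpl-2 (log2 fold change 2.55, SE 0.277, edgeR adjusted p = 3.84e-07). The zona pellucida protein noah-1 of the embryonic sheath rose by 1.11 on the log2 scale, dpy-17 by 2.05 and dpy-7 by 2.53, all 3 chosen in the same way. The members bli-1 (0.48) and egg-6 (0.00) were not called. With hpl-2-FFAA replicates 1 and 2 alone the median of the list was 1.00 and with replicates 3 and 4 alone 2.24, with 20 members higher in each. The summed level of the list was 2474 to 3128 CPM in met-2 hpl-2 and 978 to 1758 CPM in hpl-2-FFAA, and 1164 to 1287 CPM in wild type.

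The col collagens, a family of cuticle collagens of which 21 of 156 passed the filter, showed 15 higher and 1 lower. Their first named member, col-165, had no count in hpl-2-FFAA and 136 counts in met-2 hpl-2, which is at least 25.6-fold higher. Its levels were 3.35, 2.63 and 3.90 CPM in met-2 hpl-2. Under a filter of at least 5 CPM in 3 libraries 4 members were higher.

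Basement membrane genes, for the sheet of laminin and type IV collagen under epidermis and muscle, were higher in 14 of 16 tested members (87.5%), with a median of 1.09. These are wide genes, with a median width of 5738.5 bases, and 60.8% of all tested genes of 5000 bases or more were called higher. Over the alternatives, the offset for width among them, 12 to 15 members were higher. The type IV collagen let-2 stood at 17.4, 28.4, 4.75 and 10.9 CPM in hpl-2-FFAA and at 86.2, 91.4 and 109.9 CPM in met-2 hpl-2. It rose by 2.66 (SE 0.261, edgeR adjusted p = 1.12e-07), and its hpl-2-FFAA libraries spread widely, with replicates 1 and 2 at 17.4 and 28.4 CPM. The partner chain emb-9 rose by 2.57 and the SPARC homologue ost-1 by 2.78, while cle-1 (-0.22) and pxn-2 (0.39) were not called. The perlecan gene unc-52, in this list and in the muscle list, stood at 12.0, 12.3, 6.62 and 8.15 CPM against 38.4, 39.8 and 48.9 CPM and overlaps hhat-1 on the opposite strand. The median of the list was 0.73 with hpl-2-FFAA replicates 1 and 2 alone and 1.48 with 3 and 4 alone.

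Body wall muscle genes were higher in 19 of 26 tested members (73.1%), 13 of them at least 2-fold, and lower in 1, with a median of 1.01. The giant sarcomere protein gene ttn-1 stood at 4.90, 6.69, 3.05 and 5.05 CPM in hpl-2-FFAA and 35.4, 31.4 and 43.9 CPM in met-2 hpl-2. It rose by 2.91 (SE 0.165, edgeR adjusted p = 1.01e-10), is 56600 bases wide and overlaps exp-2 on the opposite strand. The myosin heavy chain myo-3 stood at 1.86, 3.16, 0.678 and 1.14 CPM against 22.1, 16.1 and 28.2 CPM, paramyosin unc-15 rose by 3.84, troponin T mup-2 by 4.05 and the myosin light chain mlc-3 by 3.65. These 4 were chosen after their values were seen. The early muscle factor hlh-1 rose by 0.56, hnd-1 (-0.12) was not called, and pat-6, of the attachment complex, fell by 0.28. The median was 0.76 with hpl-2-FFAA replicates 1 and 2 alone and 1.52 with 3 and 4 alone.

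**Figure D4:**
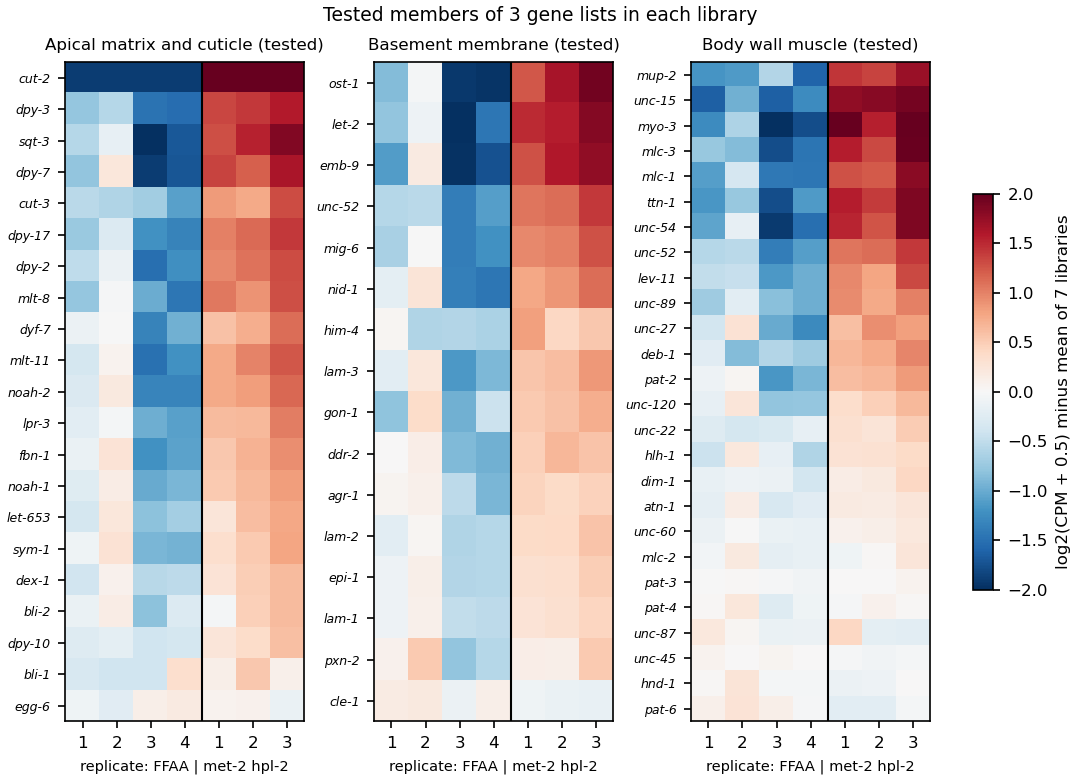
Colours give log2(CPM + 0.5) of each tested member of the apical matrix, basement membrane and body wall muscle lists minus its mean over the 7 libraries, for hpl-2-FFAA replicates 1 to 4 (left of the black line) and met-2 hpl-2 replicates 1 to 3 (right). Most rows are red in met-2 hpl-2 and darkest blue in hpl-2-FFAA replicates 3 and 4, and the last rows of each panel show little difference.

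The factors and junction proteins of the epidermis rose as well. Of 22 tested members 19 (86.4%) were higher and the other 3 were not called, with a median of 0.48. The discs large homologue dlg-1 of the apical junction stood at 207, 256, 131 and 145 CPM in hpl-2-FFAA and 344, 370 and 443 CPM in met-2 hpl-2, a log2 fold change of 1.06 (SE 0.151, edgeR adjusted p = 8.87e-06). The alpha-catenin hmp-1 rose by 0.41 (SE 0.0573). The largest change was that of grh-1, the Grainyhead factor of epidermis, at 0 to 0.676 CPM in hpl-2-FFAA and 2.48 to 3.20 CPM in met-2 hpl-2. It was chosen after its values were seen and rests on low counts.

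Hox and other homeobox genes, which set regional identity, were higher in 15 of 26 tested members (57.7%) and lower in 1, ceh-43. The Hox gene lin-39 stood at 12.3, 11.3, 8.82 and 8.15 CPM in hpl-2-FFAA and 17.2, 18.7 and 21.2 CPM in met-2 hpl-2 (log2 fold change 0.91, SE 0.131). The Six-family gene ceh-32 rose by 0.55 (SE 0.097). In both the hpl-2-FFAA replicates 3 and 4 were the lowest libraries. With replicates 1 and 2 alone 7 members were higher, and the median was 0.21 in place of 0.43. Of all 9707 genes tested in that setting 2435 were higher, with a median of 0.00. The excess of higher members thus rested largely on hpl-2-FFAA replicates 3 and 4.

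Other tissues moved less evenly. Neuronal genes were higher in 11 of 21 tested members and lower in 2, with the synaptobrevin gene snb-1 up by 0.47 (SE 0.0498) and the touch-neuron tubulin mec-7 up by 1.31 (SE 0.204). Intestinal genes were higher in 7 of 15 and lower in 3. The intermediate filament ifb-2 of the intestinal terminal web stood at 0.676 to 1.12 CPM against 3.58 to 4.84 CPM, its organiser ifo-1 rose by 1.94, and the early endoderm factor end-3 fell by 0.84. Under the stricter filter 4 intestinal members were higher and the median was -0.06 in place of 0.42. In the pharynx list 9 of 20 members passed, with tbx-2 (1.06) and peb-1 (1.56) among 4 higher, and the median of 0.42 was 0.09 after the met-2 hpl-2 libraries were thinned to the depth of hpl-2-FFAA. The summed levels of these lists were 639 to 719 CPM against 542 to 570 CPM for neurons, 404 to 427 against 398 to 432 for intestine and 573 to 620 against 473 to 550 for pharynx, in met-2 hpl-2 and hpl-2-FFAA in turn.

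The lists of genes loaded by the mother and of genes switched on first in the zygote held calls in both directions. Of 30 tested maternal genes 7 were higher and 14 lower, with a median of -0.12. The polarity gene par-2 rose by 0.40 (SE 0.0508) and the cyclin B gene cyb-1 by 0.23 (SE 0.034), while the chitin synthase chs-1 fell by 0.57 and the yolk receptor rme-2 by 0.55. The count of lower members was 3 with hpl-2-FFAA replicates 1 and 2 alone, 8 without replicate 4, 7 without met-2 hpl-2 replicate 3 and 9 with the offset for width. The summed level of the maternal list was 15439 to 16194 CPM in met-2 hpl-2, within the range of 14961 to 17170 CPM in hpl-2-FFAA. Of 35 tested early zygotic genes 9 (25.7%) were higher, sdz-30 (0.69) and vet-6 (0.46) with the smallest p, and 12 (34.3%) lower. These shares were near those over all tested genes (30.9% and 30.7%). Both with hpl-2-FFAA replicates 1 and 2 alone and with the offset for width 7 were lower. The median of the early zygotic list was -0.12, whereas its summed level was higher in every met-2 hpl-2 library (4428 to 4555 CPM) than in every hpl-2-FFAA library (3890 to 4029 CPM), with wild type between at 4227 to 4316 CPM. The medians of the apical matrix, basement membrane, muscle and homeobox lists, which hold genes of later embryos, were larger against hpl-2-FFAA replicates 3 and 4 than against 1 and 2, and the part that embryo age had in these results was not tested. Vitellogenin genes, for yolk proteins of the adult intestine, were at traces. Of 6 such genes 1 passed the filter and was called higher (log2 fold change 0.98), though not in every alternative. The sum of the 6 was 3.42 to 4.91 CPM in met-2 hpl-2, 1.47 to 2.88 CPM in hpl-2-FFAA and 2.47 to 3.37 CPM in wild type. Of 89 sperm genes 11 passed, with 4 higher and 4 lower (36.4% each) and sums of 176 to 183 CPM against 178 to 199 CPM. The unconventional myosin spe-15, which overlaps gst-25 on the opposite strand, was the highest of the named ones, at 26.3, 21.9 and 21.4 CPM against 4.89 to 5.21 CPM.

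**Figure D5:**
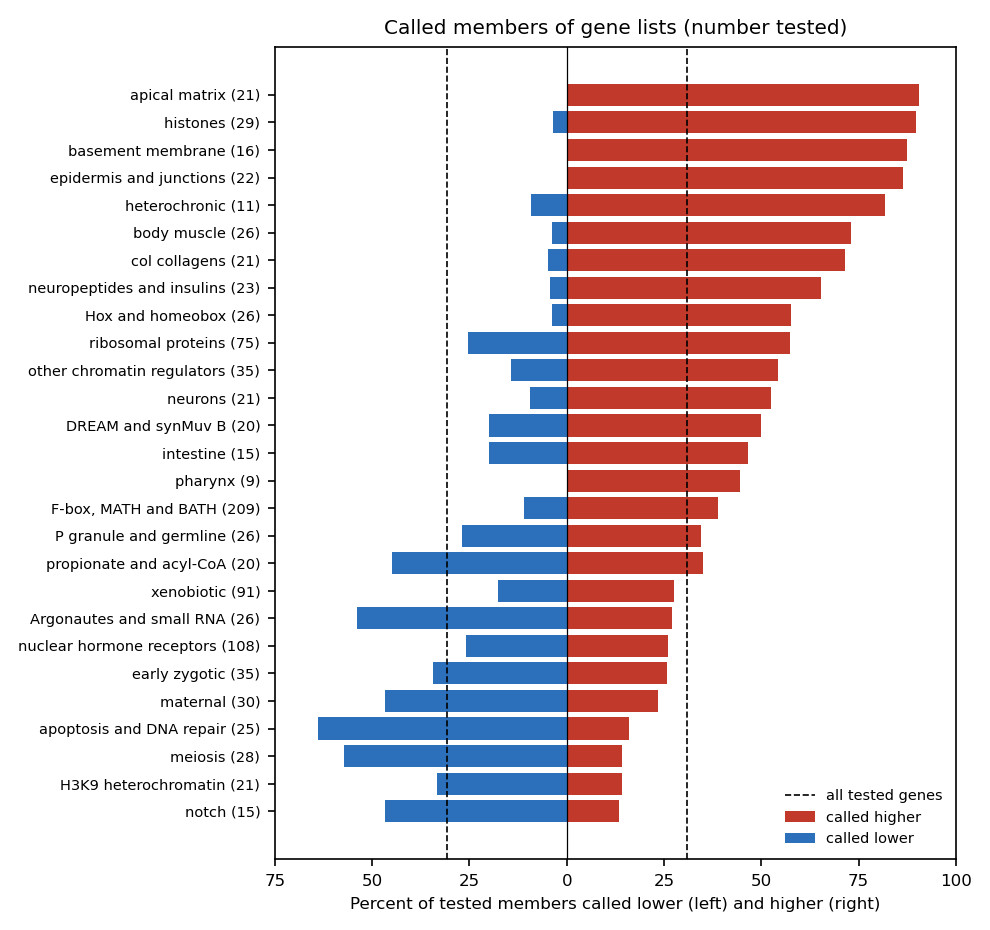
Bars give the percent of tested members called higher (red, right) and called lower (blue, left) in met-2 hpl-2 for 27 gene lists with the number tested in parentheses, and dashed lines mark all tested genes (30.9% higher, 30.7% lower). The apical matrix, histone, basement membrane and epidermis lists lie above 85% higher, and the apoptosis and DNA repair and meiosis lists lie above 55% lower.

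Temporal regulators rose, with hbl-1 in front. Of 11 tested heterochronic genes, which time developmental fates, 9 were higher and 1 lower (lin-41, by 0.26), with a median of 0.57. The Hunchback homologue hbl-1 stood at 14.2, 19.1, 10.2 and 15.2 CPM in hpl-2-FFAA and at 76.0, 81.2 and 103 CPM in met-2 hpl-2. Wild type was lower, at 6.93 ± 0.6 CPM, and the hpl-2 mutant lay between, at 25.1 ± 2.67 CPM. The log2 fold change was 2.57 (SE 0.134, edgeR adjusted p = 3.24e-11). The microRNA Argonaute alg-1, at 176, 212, 143 and 139 CPM against 338, 361 and 432 CPM, rose by 1.18 (SE 0.106).

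Among signalling genes the Wnt and asymmetric division list had 11 of 24 tested members higher and 5 lower, with the Nemo-like kinase lit-1 up by 0.67 (SE 0.0569) and the Frizzled receptor mom-5, which overlaps tsp-7 on the opposite strand, down by 0.40. Of 15 Notch pathway genes 2 were higher and 7 lower. The ligand lag-2 rose by 0.65 (SE 0.112) and the gamma-secretase subunit pen-2, which overlaps T28D6.7 on the opposite strand, fell by 1.18 (SE 0.123). The Notch count of lower members was 11 with library size alone, 4 with hpl-2-FFAA replicates 1 and 2 alone, and 3 with the stricter filter or the offset for width. Of 12 genes of the DLK-1 pathway, a kinase cascade known from axon regeneration, 3 rose and 3 fell (25% each). Over all tested genes 30.9% were higher and 30.7% lower. In the DLK-1 list 5 rose without hpl-2-FFAA replicate 2. The kinase gene dlk-1 itself stood at 8.95, 11.9, 5.6 and 5.54 CPM in hpl-2-FFAA and at 23.2, 22.7 and 23.1 CPM in met-2 hpl-2. Both were below the hpl-2 mutant, at 62.8 CPM on average, and wild type stood at 6.82 CPM. The gene overlaps mec-19 on the opposite strand. Its log2 fold change was 1.54 (SE 0.163), and that of the downstream factor cebp-1 was 1.04 (SE 0.204).

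The machinery of H3K9 methylation showed few large changes beyond the mutated genes. Of 21 tested members 3 (14.3%) were higher and 7 (33.3%) lower, the mutated pair included, beside 30.9% and 30.7% over all tested genes. The second HP1 gene hpl-1 stood at 15.2, 16.5, 13.1 and 13.0 CPM in hpl-2-FFAA and at 9.17, 11.5 and 11.3 CPM in met-2 hpl-2, and fell by 0.43 (SE 0.129, edgeR adjusted p = 0.00731). The MET-2 cofactor lin-65 fell by 0.32 and the perinuclear anchor cec-4 by 0.22. The HPL-2 partner lin-13 rose by 0.46 and the chromodomain gene cec-1 by 0.41, although the cec-1 libraries overlapped. The methyltransferase gene set-25, for H3K9 trimethylation, was not called (-0.09). These 6 genes were chosen after their values were seen. The count of lower members was 14 with library size alone and 11 without hpl-2-FFAA replicate 2.

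Other chromatin regulators were more often higher than lower. Of 20 tested members of the DREAM and synMuv B list, a repressor complex and its partners that act beside HPL-2, 10 were higher and 4 lower. The THAP-domain gene lin-15B stood at 588, 582, 572 and 564 CPM in hpl-2-FFAA and at 786, 783 and 802 CPM in met-2 hpl-2, a log2 fold change of 0.46 (SE 0.0298), and shares its locus with lin-15A on the same strand. The E2F gene efl-1 stood at 158, 158, 158 and 169 CPM against 107, 108 and 106 CPM and fell by 0.59 (SE 0.0384). Of 35 other chromatin regulators 19 were higher and 5 lower. The H3K4me3 readers set-9 and set-26, close paralogues whose reads may be shared, rose by 0.96 (SE 0.0494) and 0.72 (SE 0.055). Of 22 genes of dosage compensation and sex determination 10 were higher, dpy-30 (0.37) among them, and 6 lower, with tra-4 down by 0.66 (SE 0.0396), and 6 were higher with library size alone. Of 17 genes of the nuclear lamina and pores 6 (35.3%) were higher and 3 (17.6%) lower, with npp-7 up by 0.39 and lem-3 down by 0.37. Over all tested genes these shares were 30.9% and 30.7%.

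Genes of the small RNA pathways were more often lower than higher. Of 26 tested members 7 were higher and 14 (53.8%) lower. The Argonaute wago-4, which carries small RNAs between generations, stood at 85.8, 82.5, 86.3 and 102.7 CPM in hpl-2-FFAA and at 202.6, 211 and 206 CPM in met-2 hpl-2. Wild type stood at 82.8 CPM and the hpl-2 mutant at 129 CPM. The log2 fold change was 1.21 (SE 0.056, edgeR adjusted p = 6.05e-12), and that of the Argonaute ppw-2 was 0.96 (SE 0.0665). The members that fell most were the Argonaute sago-1 (by 0.62), the nucleotidyltransferase mut-2 (by 0.58) and the RNA-dependent RNA polymerase rrf-1 (by 0.48), chosen after their values were seen. Of 26 P granule and germline genes 9 (34.6%) were higher and 7 (26.9%) lower, near the shares over all tested genes (30.9% and 30.7%). The cap-binding protein ife-1, which overlaps dro-1, rose by 0.53 and the RNA-binding protein fbf-1, which overlaps H12I13.6 on the opposite strand, by 0.89. Against hpl-2-FFAA replicates 1 and 2 there were 14 higher germline genes.

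Meiotic genes were lower in 16 of 28 tested members (57.1%) and higher in 4, with a median of -0.25. The gene him-5, needed for crossovers on the X chromosome, stood at 8.45, 10.9, 9.67 and 10.4 CPM in hpl-2-FFAA and at 3.20, 2.41 and 2.60 CPM in met-2 hpl-2. It fell by 1.84 (SE 0.158, edgeR adjusted p = 2.14e-08). The X pairing protein him-8 fell by 0.85 (SE 0.0875), and the 4 that rose were rec-8, plk-2, syp-1 and htp-3, by at most 0.41. The levels of wild type (9.56 CPM) and the hpl-2 mutant (11.5 CPM) for him-5 were near hpl-2-FFAA.

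Genes of DNA repair and cell death were lower in 16 of 25 tested members (64.0%) and higher in 4. The BRCA1 partner brd-1 stood at 71.5, 81.2, 71.1 and 74.7 CPM against 48.9, 44.3 and 48.5 CPM and fell by 0.66 (SE 0.057), and parp-2 fell by 0.52 (SE 0.0476). The p53 homologue cep-1 (by 0.43) and the Ku gene cku-70 (by 0.60) also fell. The apoptosis trigger egl-1 went the other way, with levels between 0.845 and 2.42 CPM in hpl-2-FFAA and between 3.20 and 4.26 CPM in met-2 hpl-2. Its log2 fold change was 1.48 (SE 0.325, edgeR adjusted p = 0.000742), and egl-1, cep-1 and cku-70 were chosen after their values were seen.

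Histone genes were higher in 26 of 29 tested members (89.7%) and lower in 1, his-71, with a median of 0.60. The gene his-63 stood at 187, 209.5, 181 and 174 CPM in hpl-2-FFAA and at 825, 841 and 866 CPM in met-2 hpl-2, a log2 fold change of 2.17 (SE 0.0489, edgeR adjusted p = 1.32e-16). Wild type (179 CPM) and the hpl-2 mutant (184 CPM) matched the hpl-2-FFAA range. Larger fold changes were those of his-5 (3.77) and his-18 (2.77), chosen after their values were seen. Most replication-dependent histone genes are near-identical copies whose reads the counting may have split. Their transcripts lack the usual tail, and the libraries were made from total RNA after removal of ribosomal RNA, per the labels' protocols. The summed level of the list was 37287 to 43623 CPM against 22002 to 26723 CPM.

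Calls among ribosomal protein genes went both ways. Of 75 tested members 43 (57.3%) were higher and 19 (25.3%) lower, and their sum was 9633 to 10182 CPM in met-2 hpl-2 and 7476 to 8643 CPM in hpl-2-FFAA. The median width was 719 bases among those higher and 498 among those lower, and 10 of 43 and 10 of 19 were under 500 bases. The widths overlapped, at 316 to 1295 bases among those higher and 247 to 849 among those lower. The small-subunit gene rps-29, of 317 bases, stood at 99.3, 106, 100.1 and 99.9 CPM in hpl-2-FFAA and at 21.5, 23.5 and 24.6 CPM in met-2 hpl-2, and fell by 2.13 (SE 0.063, edgeR adjusted p = 9.58e-15). With the offset for width 48 members were higher and 17 lower. Genes of the mitochondrial genome were higher in 8 of 12 and lower in 3, with ND6, which overlaps WBGene00010958 on the same strand, up by 1.40 (SE 0.125), while their share of all counts was 3.18% to 3.44% in met-2 hpl-2 and 3.71% to 3.92% in hpl-2-FFAA.

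Propionate and acyl-CoA metabolism held a few large increases in an otherwise even list. Of 20 tested members 7 (35%) were higher and 9 (45%) lower, beside 30.9% and 30.7% over all tested genes. At least 2-fold higher were 4 of the 7. Beside acdh-1 stood acdh-2, a related dehydrogenase, at 3.38, 2.05, 2.04 and 2.61 CPM against 24.4, 29.1 and 21.5 CPM (log2 fold change 3.30, SE 0.182). It overlaps the insulin gene ins-13 on the same strand, which had a log2 fold change of 3.51 (SE 0.201), and the reads of the pair cannot be told apart. The shunt dehydrogenase hphd-1 rose by 1.11, the regulator nhr-68 by 0.90 and the S-adenosylmethionine synthetase sams-1 by 1.72, chosen after their values were seen. Of the canonical pathway, mce-1 fell by 0.73 and pccb-1 by 0.36. With the offset for width 4 members were lower in place of 9.

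Among heat-inducible chaperone genes 3 of the 6 tested, of 10 measured, were lower in met-2 hpl-2, and the others were not called and stood at -0.34 to -0.05. The small heat shock gene hsp-16.41 stood at 13.2, 18.4, 12.0 and 13.2 CPM in hpl-2-FFAA and at 2.18, 3.51 and 3.83 CPM in met-2 hpl-2. Wild type resembled hpl-2-FFAA at 13.8 CPM, and the hpl-2 mutant stood at 1.81 CPM. It fell by 2.15 (SE 0.267, edgeR adjusted p = 1.89e-06), and hsp-16.2 fell by 1.49 (SE 0.221). The summed level of the list overlapped, at 1934 to 2054 CPM in met-2 hpl-2, 1859 to 2267 CPM in hpl-2-FFAA and 1925 to 2068 CPM in wild type. Its median was -0.91, and -0.30 under the stricter filter. Of 22 constitutive chaperones 7 (31.8%) were higher, hsp-3 by 0.57 among them, and 5 (22.7%) lower, cct-3 by 0.22 among them. Over all tested genes 30.9% were higher and 30.7% lower. With library size alone 4 constitutive chaperones were higher.

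The large gene families differed among themselves. Of 395 F-box, MATH and BATH genes, adaptors of ubiquitin ligases, 209 passed the filter, with 81 higher (38.8%) and 23 lower (11.0%). The F-box gene fbxa-170 stood at 13.0, 11.9, 13.7 and 13.7 CPM against 28.7, 27.6 and 26.6 CPM, and 53 members were higher with hpl-2-FFAA replicates 1 and 2 alone. Nuclear hormone receptors were at 28 higher and 28 lower of 108 (25.9% each), beside 30.9% and 30.7% over all tested genes. The receptor gene nhr-138, which overlaps C28D4.18 on the same strand, fell by 1.37 (SE 0.125), and 17 members were higher against replicates 1 and 2. Of 23 tested neuropeptide and insulin genes 15 were higher and 1 lower, and 7 were higher under the stricter filter. Of 91 xenobiotic genes 25 (27.5%) were higher and 16 (17.6%) lower, the higher share near the 30.9% over all tested genes. With hpl-2-FFAA replicates 1 and 2 alone 12 xenobiotic genes were higher. The dehydrogenase dhs-8 of this list stood at 42.7, 39.6, 39.4 and 38.8 CPM against 11.9, 13.2 and 13.0 CPM. Chemoreceptor genes passed in 38 of 1292, with 17 (44.7%) higher and 1 (2.63%) lower, and members can pass through met-2 hpl-2 alone. Among all tested genes from 1 to under 3 CPM, the level of srh-71, 43.4% were higher and 5.96% lower. The receptor gene srh-71 rose by 1.58, and 2 chemoreceptor genes were higher under the stricter filter. Of 35 kinesin, tubulin and cilia genes 19 were higher and 3 lower, with tba-1 up by 0.39, and with library size alone, the stricter filter or hpl-2-FFAA replicates 1 and 2 there were 12. Of 25 C-type lectins 9 (36%) were higher and 2 (8%) lower, beside 30.9% and 30.7% over all tested genes. The lectin clec-12 was up by 0.78, and 3 members were higher under the stricter filter. Immune effectors were higher in 6 of 8 and lower in 1, with irg-7 at 0.372 to 0.978 CPM against 4.95 to 6.64 CPM, and 3 were higher under the stricter filter or with replicates 1 and 2 alone. Of 8 tested genes of the intracellular pathogen response 2 were higher, zip-1 (1.60) and pals-26 (0.74), and 2 lower, and zip-1 overlaps pph-4.1 on the opposite strand.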

How the data were processed

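RNA-seq counts of 14 libraries of early C. elegans embryos in 4 groups were used. The authors deposited raw counts per gene, whole numbers for 20392 genes, beside the width of each gene in bases, a value of another kind that equalled the summed exon length of the WBcel235 annotation in 2088 genes. Ribosomal RNA was removed and stranded libraries were made from total RNA, per the labels' protocols. Trimmomatic 0.39 and the build ce10 come from the submitters' processing notes. Not given in the sources used here were the aligner, the counter, its use of strand and the annotation, so overlapping genes and near-identical copies are uncertain. Symbols and positions came from WBcel235, by identifier (19870 matched, 19182 with a name), and were not converted to ce10. Sequences were not used here.

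The test of the counts was that of edgeR 4.0.16 in R 4.3.3 (filterByExpr, TMM, quasi-likelihood test, all 14 libraries in a fit of 4 groups) and Benjamini-Hochberg adjustment over 9498 genes, with calls at an adjusted p under 0.05. The biological coefficient of variation was 5.34%. SE is the size of the log2 fold change over the square root of F. The scripts were tested on simulated counts. No label states that replicates came from separate cultures, and p-values cover the spread between the samples at hand, possibly a technical one.

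Genes were named by rule: hpl-2, met-2, the 8 highest and the 8 lowest log2 fold changes among called genes whose libraries did not overlap and whose higher mean reached 5 CPM, and from each list with at least 3 called members the 2 of smallest adjusted p, or 1 for families of over 50. All other genes named were chosen after their values were seen. The comparison, the rule and the lists were chosen with earlier results of these data known. Lists are described by counts and medians, with no set test. Alternatives were other scalings, filters and samples, DESeq2 1.42.0, a replicate block, thinning to equal depth, glmTreat, each library left out, and an offset for width added after the data were seen.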

Additional observations from a re-analysis of the deposited data

Results flagged for a closer look

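The hpl-2-FFAA libraries alone were looked at, in 123 groups of 4 values. In 4 groups a library's distance from the nearest other, over the range, exceeded the 95% critical value of Dixon's test for 4 samples. The hpl-2 mutant, also with 4 libraries, was not looked at. Chance alone sets apart about 1 in 20 such groups. The level of hpl-2 was 70.3 CPM in replicate 4 against 63.5 to 63.8 CPM in the other 3. The level of efl-1 was 169.4 CPM in replicate 4 against 157.9 to 158.2 CPM. The level of rps-29 was 106.2 CPM in replicate 2 against 99.3 to 100.1 CPM. F41F3.3 was at 0.170 CPM, a single count, in replicate 3 and at 0 in the others. In all 4 genes the met-2 hpl-2 libraries lay outside the range of the hpl-2-FFAA libraries. This held for all 80 genes named by rule, which were picked for small adjusted p-values, large fold changes or a mutation. Among all tested genes it held for 55.8%.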

How the results depend on the processing

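The count of called genes was 5856 and lay between 4928 (hpl-2-FFAA replicates 1 and 2 alone) and 6547 (no low-count filter) over the alternatives run, within 1.5 times in each. The count of genes at least 2-fold higher was less stable: 779 became 1604 without a low-count filter, 357 under a filter of at least 5 CPM in 3 libraries and 1177 against hpl-2-FFAA replicates 3 and 4 alone. Tested against a 2-fold change itself with glmTreat, 300 genes were higher and 98 lower. With each library left out in turn, called genes ran from 5266 to 6032, those higher from 2631 to 3007, those lower from 2635 to 3025, those at least 2-fold higher from 708 to 906 and those at least 2-fold lower from 224 to 266. DESeq2 called 5410 genes, 2738 higher and 2672 lower, and after thinning of met-2 hpl-2 to the depth of hpl-2-FFAA 5373 were called. The offset for width gave 3426 higher and 2380 lower. Without the low-count filter 53 chemoreceptor, 30 col collagen, 26 C-type lectin, 11 intestinal, 10 sperm and 10 immune effector genes were higher. The X share differed by 1.11 to 1.502 percentage points with a library left out. For the 80 genes named by rule, the direction and the call held in 1433 of 1433 values over 18 alternatives. A gene not tested in an alternative gave no value there. Apart from hpl-2 and met-2 these genes were picked for small adjusted p-values or large fold changes in these same data. Their stability is therefore no check of the calls in general. The depth of hpl-2-FFAA limits fold changes of genes below about 1 CPM, and 8621 genes with a count were not tested.

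Replicate numbers in the labels were not used to pair the samples in the main test. The correlation of deviations from the group means was -0.08, -0.09 and -0.22 for libraries of the same number over 9498 genes. No met-2 hpl-2 library correlated best with its own number. These correlations followed the split of hpl-2-FFAA into pairs and cannot tell whether libraries of a number shared a preparation. With the replicate number as a block 5510 genes were called, 2759 higher and 2751 lower. Of these, 724 were at least 2-fold higher and 229 at least 2-fold lower. No call of a gene named by rule changed, with the limit given above.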

Other observations

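The 6 genes without a count in hpl-2-FFAA and above 1 CPM in each met-2 hpl-2 library were cut-2, col-165, mlc-7, C33C12.11, R07E3.6 and T23E1.3. The last 4 did not pass the low-count filter, and they were chosen after their values were seen. The myosin light chain gene mlc-7 stood at 1.53, 2.41 and 2.74 CPM in met-2 hpl-2 and R07E3.6 at 2.84, 1.46 and 3.03 CPM. C33C12.11 stood at 1.45, 1.97 and 2.17 CPM and T23E1.3 at 1.89, 1.39 and 1.30 CPM. Means of these 4 in wild type and the hpl-2 mutant ran from 0 to 0.280 CPM.

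The Krüppel-like factor klf-1, also chosen after its values were seen, separated the genotypes with the tm1489 allele from the others. It stood at 0.845, 0.930, 1.19 and 1.47 CPM in hpl-2-FFAA and at 11.6, 9.65 and 10.3 CPM in met-2 hpl-2 (log2 fold change 3.22, SE 0.229, edgeR adjusted p = 1.96e-09). The hpl-2 mutant stood at 7.51 ± 1.42 CPM and wild type at 0.555 ± 0.376 CPM. C38D9.2 and acdh-1 differed from klf-1 in this respect, since the hpl-2 mutant was at 8.45 and 0.53 CPM for these and met-2 hpl-2 at 204 and 68.4 CPM.

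The split of calls varied with the level of a gene. Of 2501 genes at 100 CPM or more, 860 were higher and 849 lower in met-2 hpl-2. Between 30 and 100 CPM 553 of 2530 were higher and 1121 lower, and between 10 and 30 CPM 421 of 1663 were higher and 600 lower. Below 10 CPM, where genes can pass the filter through the genotype in which they are high, higher calls outnumbered lower ones.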
